A study of Mus musculus with 354 samples.

Results

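The proteasome is the large protease that degrades proteins tagged with ubiquitin, and 40 genes whose symbols begin with Psma, Psmb, Psmc, Psmd or Psme were followed in mouse liver. They were all such genes with a probe set naming a single symbol, out of 16670 genes with one, and each was represented by its probe set with the highest mean. All 40 were among the 14125 genes that passed a filter on dim values. By role they comprised 28 constitutive subunits, 3 immunoproteasome subunits (Psmb8, Psmb9 and Psmb10), 3 activators (Psme1, Psme2 and Psme3) and 2 assembly chaperones (Psmd5 and Psmd9). The testis form Psma8, the thymus form Psmb11 and 2 genes that share only the symbol, Psmc3ip and Psme3ip1, completed the 40.

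The 28 constitutive subunits were 6 of the alpha ring (Psma1, Psma2, Psma4, Psma5, Psma6 and Psma7), 6 of the beta ring (Psmb1, Psmb2, Psmb4, Psmb5, Psmb6 and Psmb7), 5 ATPases of the regulatory particle (Psmc1 to Psmc5) and 11 of its other subunits. The core particle is a barrel of stacked rings: the alpha rings form the gate, and Psmb5, Psmb6 and Psmb7 cut the substrate. The regulatory particle binds ubiquitin, unfolds the substrate with its ATPases and feeds it into the barrel. Under interferon, Psmb8, Psmb9 and Psmb10 replace Psmb5, Psmb6 and Psmb7 in newly built particles, Psme1 and Psme2 form an alternative cap, and the peptides made feed antigen presentation.

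The livers came from male mice of 45 Collaborative Cross strains, inbred lines that each carry a different mixture of the same founder genomes. In each strain, animals were given either vehicle (179 arrays, labelled Control) or tolvaptan (175 arrays), which blocks V2 receptors for vasopressin and was studied here for liver damage, and the liver was taken at 24 h. All animals were 8 to 10 weeks old at dosing and were fasted for about 18 h before necropsy. A strain and treatment group held 4 animals in 85 cases, 3 in 4 and 2 in 1, each array being a different animal. The sample was a piece of the median lobe with all its cell types, so that fewer cells of a type and less RNA per cell cannot be told apart.

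Values are log2 expression, and a difference of 1 is a factor of 2. Array medians lay between 2.81 and 3.02 and 75th percentiles between 4.55 and 5.36. Hepatocyte markers were bright in both treatments, the mean level of 6 markers lying between 11.9 and 13.2 over vehicle arrays. Psma8 and Psmb11, which a liver should lack, were dim, with median vehicle values of 2.68 and 2.46. Over 500 strain-separating probe sets, 34 arrays in 19 strains had a correlation of at most 0.401 with arrays sharing their strain label, whereas all others had at least 0.685. Of these 34 arrays off their strain, 27 were labelled vehicle, 7 tolvaptan, and 22 belonged to scan 2 of 6. Labels were kept, and many results are also given without these arrays.

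The first question was whether tolvaptan changed proteasome expression on average over the strains. No single gene passed the test. The averaged differences of the 28 constitutive subunits were small, from -0.10% for Psmb2 to 5.43% for Psmd12, and 27 of the 28 lay above 0, but 20 of 28 in scan 1 alone. In the limma fit 0 of the 40 genes had an adjusted p under 0.05, beside 0.496% of all 14125 genes. The difference was above 0 in 34 of the 40, beside 50.3% of all genes, with a median of 0.029 against 0.00027 for all genes. At an unadjusted p under 0.05 there were 12 of the 40, beside 9.56% of all genes. The subunits share animals and vary together, so that these counts are descriptions and not independent observations.

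All 6 alpha-ring subunits lay above 0, with differences from 0.006 for Psma2 to 0.038 for Psma7, and none reached an unadjusted p under 0.05. In the beta ring 5 of 6 lay above 0, Psmb2 standing at -0.0015. All 5 ATPases lay above 0, as did all 11 other subunits of the regulatory particle. Without the arrays off their strain the counts were 6 of 6 (alpha), 4 of 6 (beta), 5 of 5 (ATPases) and 9 of 11 (others). In scan 1 alone they were 5 of 6, 4 of 6, 3 of 5 and 8 of 11. The largest constitutive difference was that of Psmd12, a lid subunit, at 0.076 ± 0.036 (SE). Psmd13, another lid subunit, followed at 0.067 ± 0.025, then Psmb7, a catalytic subunit, at 0.065 ± 0.026, the ATPase Psmc1 at 0.061 ± 0.028, and the ATPase Psmc2 at 0.056 ± 0.021. The 95% intervals of the 28 constitutive subunits ended no higher than a rise of 10.8% and no lower than -4.97%.

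Of the core particle, the immunoproteasome subunits Psmb8 and Psmb10 had the largest averaged differences over all arrays, neither past the test. Psmb8 ranged from 5.99 to 9.28 with a median of 8.21 over vehicle arrays, and from 5.62 to 9.86 with a median of 8.28 over tolvaptan arrays. The ranges overlapped almost entirely, and the averaged difference of Psmb8 was 0.10 ± 0.050 (SE; limma adjusted p = 0.481), above 0 in 31 of 45 strains. Psmb10 ran from 7.31 to 9.77 with a median of 8.40 under vehicle and from 7.43 to 9.67 with a median of 8.46 under tolvaptan. Its difference was 0.081 ± 0.039 (limma adjusted p = 0.475), above 0 in 29 strains. Psmb9 had medians of 7.43 and 7.50 and a difference of 0.064 ± 0.067 (limma adjusted p = 0.841), so that its error was larger than the difference.

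The constitutive counterparts were read beside them. Psmb5, the subunit that Psmb8 replaces, had medians of 7.45 under vehicle and 7.43 under tolvaptan, and a difference of 0.010 ± 0.043 (SE). Psmb6, which Psmb9 replaces, had medians of 10.54 and 10.56 and a difference of 0.028 ± 0.023. Psmb7, which Psmb10 replaces, had medians of 7.95 and 8.00, and was above 0 in 33 strains (limma adjusted p = 0.344).

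The activators differed in sign, and none was called. Psme1 and Psme2, the interferon-inducible pair, had differences of 0.050 ± 0.023 and 0.074 ± 0.029 (SE) and were above 0 in 30 and 32 strains. Vehicle medians were 9.86 for Psme1 and 9.07 for Psme2, against 9.92 and 9.17 under tolvaptan. Psme3, which forms a separate cap found in the nucleus, had a vehicle median of 6.68, a tolvaptan median of 6.62 and a difference of -0.072 ± 0.030 (limma adjusted p = 0.379). It ran from 5.55 to 7.40 under vehicle and from 4.68 to 7.34 under tolvaptan, and the difference was above 0 in 17 of 45 strains. A second, dimmer Psme3 probe set had an averaged difference of -0.0091.

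The lowest averaged value of the 40 was that of Psmc3ip, a partner of meiotic recombinases and no proteasome subunit, at -0.094 ± 0.051 (SE). Its vehicle values ran from 2.59 to 6.71 with a median of 3.73, and its tolvaptan values from 2.83 to 6.41 with a median of 3.69. Without the arrays off their strain it stood at -0.054, and Psme3 was lowest of the 40 at -0.081. Psme3ip1, which binds the Psme3 cap, ran from 7.00 to 8.06 with a median of 7.61 under vehicle and from 5.64 to 8.26 with a median of 7.59 under tolvaptan, and its difference was -0.029 ± 0.021. Among the chaperones of regulatory-particle assembly, Psmd5 stood at 0.006 and Psmd9 at -0.010. Psma8, dim in these livers, ran from 2.03 to 4.92 under vehicle and from 1.96 to 4.19 under tolvaptan, and stood at 0.079 ± 0.035.

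Without the 34 arrays off their strain, 30 of the 40 lay above 0 (46.7% of all genes) and 5 had an unadjusted p under 0.05 (10.9% of all genes), with 0 called (0.312% of all genes). The difference of Psmb10 was then 0.032, that of Psmb9 0.019 and that of Psmb8 0.075, and Psmb5 turned to -0.011. In the 26 strains with no such array, 32 of the 40 lay above 0 (45.7% of all genes), 8 had an unadjusted p under 0.05 (15.1% of all genes) and 0 were called by limma (2.12% of all genes). The lowest limma adjusted p there was 0.0622, for Psme3 at -0.12. In scan 1 alone 30 of the 40 lay above 0 (58.7% of all genes), and in the later scans 33 (47.3% of all genes).

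**Figure D1:**
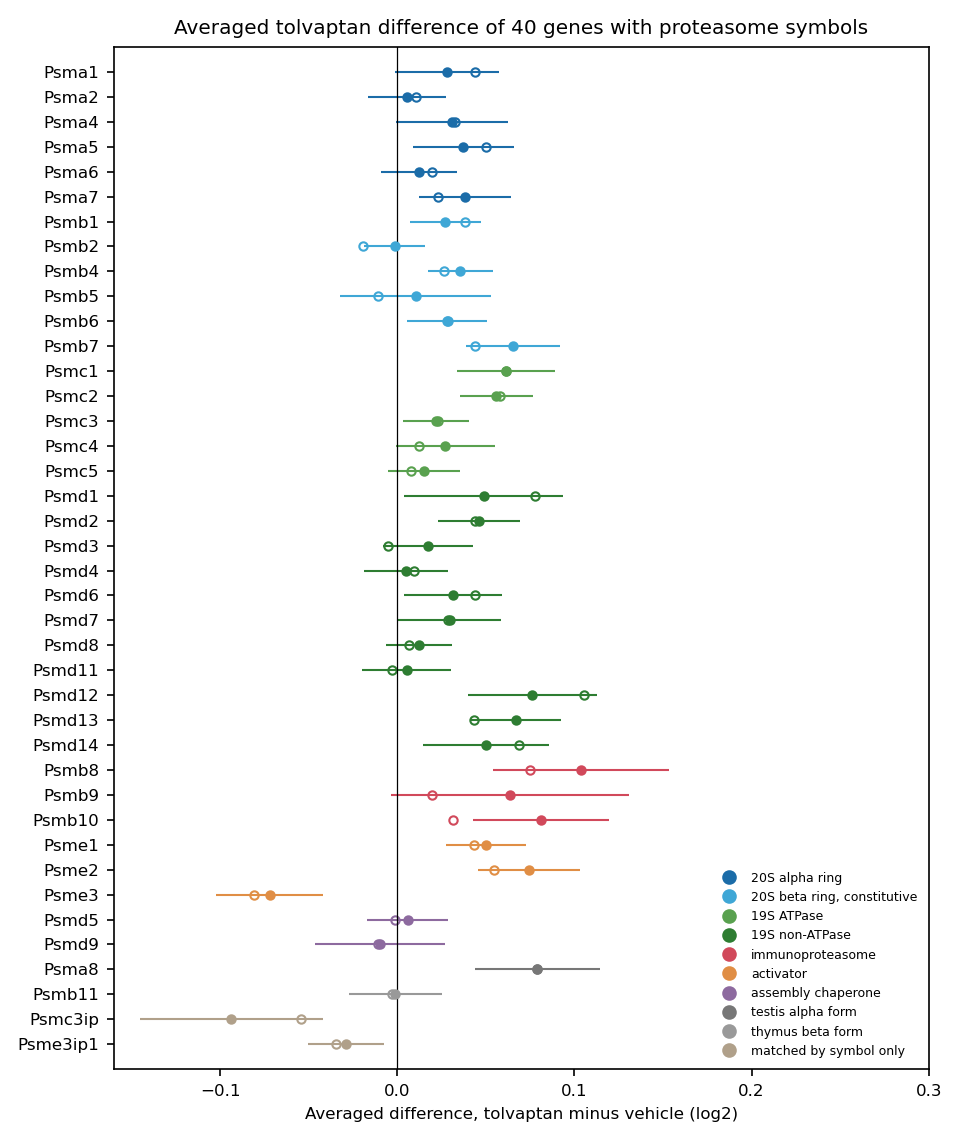
Averaged tolvaptan minus vehicle difference (log2) of the 40 genes, coloured by role; filled points with bars are the estimate and its SE over all 354 arrays, open points the estimate without the 34 arrays off their strain. The constitutive subunits gather just right of 0, the immunoproteasome subunits lie between 0.064 and 0.10, and Psme3 and Psmc3ip lie at -0.072 and -0.094.

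Genes around the proteasome were looked at from fixed lists. Of 12 assembly factors and partners that were tested, 1 rose: Pomp, the factor that joins the beta subunits during core assembly, by 0.080 ± 0.019 (SE; limma adjusted p = 0.00983), above 0 in 31 of 45 strains. Its difference was 0.073 without the arrays off their strain and 0.109 in the 26 other strains. The dedicated core chaperones Psmg1 to Psmg4 lay between -0.040 and 0.0042. Of 7 tested genes in a list of regulators, which are transcription factors and Ngly1, a deglycosylase that processes Nfe2l1, none was called. Nfe2l1, the factor that raises subunit transcription when proteasome activity falls, stood at 0.025 ± 0.029, and Nfya, which had the lowest p of the list, at -0.057.

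All 8 tested genes of ubiquitin and its shuttles lay above 0 and none was called, the lowest p being that of the shuttle Ubqln2 at 0.083 ± 0.031 (SE). Beside this and the following counts, 50.3% of all genes lay above 0. Without the arrays off their strain Ubqln4, Ufd1 and Nploc4 lay below 0, at -0.011, -0.0022 and -0.016. They were also below 0 in the 26 strains with no such array, while the others of the list stayed above 0. Of 9 genes of degradation from the endoplasmic reticulum, 1 rose, the channel component Derl3, by 0.99 ± 0.13 (limma adjusted p = 8.41e-09). Of 8 antigen-processing genes 7 lay above 0 without a call, the lowest p being those of the chaperone Calr at 0.107 and Tapbp at 0.072. Of 14 interferon-responsive genes 10 lay above 0 without a call, with Ifi47 at 0.10 and Usp18 at 0.16. All 7 class II genes lay below 0 without a call, with Cd74 at -0.094 and H2-Ab1 at -0.16.

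Immune cells also carry immunoproteasome subunits, so markers of other liver cells were read beside them. The mean level of 4 pan-leukocyte markers ran from 4.04 to 6.62 over vehicle arrays and from 4.01 to 7.30 over tolvaptan arrays, with means of 5.23 in both. Of the 4 leukocyte, 6 T and NK cell, 4 B cell, 7 macrophage and 2 neutrophil markers none was called, and their median differences were 0.0030, 0.034, -0.047, -0.031 and 0.11. The lowest p in those lists were those of Coro1a at 0.052, Klrd1 at 0.063, Cd37 at 0.063, Cd68 at 0.14 and S100a8 at 0.16. Cd37 was the only 1 of the 4 B cell markers above 0. Several markers were dim: Klrd1, Ms4a1, Cd3g and Nkg7 had means of 2.30, 2.35, 2.44 and 2.69, below the array medians of 2.81 to 3.02. Cd37, at 3.15, was little brighter. Differences of genes this dim say little about the cells. Of 5 sinusoidal endothelial markers, Stab2 fell by 0.19 ± 0.036 (SE; limma adjusted p = 0.00104). Of 6 hepatocyte markers none was called, with Apoa1 at -0.016. The part of cell composition in the subunit values was not tested.

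The test of differing responses called none of the 40, and the counts by strain are descriptions. Within a strain the subunits counted share the same few animals. OR477 and AU8010 are shown because they had the fewest and the most constitutive subunits higher of the 45 strains. The interaction of strain and treatment called 0 of the 40 by limma, beside 0.0212% of all genes. An unadjusted p under 0.05 was found for 3 of the 40, beside 957 of all 14125 genes. The lowest adjusted p was 0.236, for Psme3ip1. More than 14 of the 28 constitutive subunits were higher after tolvaptan in 28 strains, exactly 14 in 3, and fewer in 14. The median difference of the 3 immunoproteasome subunits was above 0 in 31 strains. These strain counts include the arrays off their strain, and such counts were not computed for all genes. By strain, the median difference of all genes ran from -0.075 in IL16012 to 0.12 in IL16750. Without the arrays off their strain the median constitutive difference changed sign in AU18042, AU8034 and IL16750, to -0.00079, 0.0078 and -0.047.

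OR477 stood at the low end: 0 of its 28 constitutive subunits were higher, with a median difference of -0.22, beside 50.7% of all genes higher there. Averaged over the 28, its vehicle animals had values of 9.36, 9.35, 9.24 and 9.28, and its tolvaptan animals 9.13, 8.99 and 9.08. The groups did not overlap, and no single subunit was called by limma in this strain, where 0.0283% of all genes were. The vehicle animal at 9.36 was an array off its strain. Of the individual subunits, Psmd13 stood at -0.46 and Psmd2 at -0.45 in OR477.

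AU8010 stood at the high end, with 27 of 28 higher, beside 64.4% of all genes, and a median difference of 0.26. Its vehicle animals had means of 9.43, 9.43, 8.54 and 9.47, and its tolvaptan animals 9.50, 9.53, 9.41 and 9.52. A single vehicle animal, 373, lay far below the rest, and its array also had the lowest 75th percentile of the strain, 4.81. Without this animal 20 of 28 were higher and the mean difference over the subunits fell from 0.274 to 0.0501.

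In single strains, with p-values adjusted over all genes within the strain, limma called 6 values in 3 strains. Over the 40 genes and 45 strains this was a share near that of all gene and strain combinations, 0.281%. The number was 0 with each strain fitted on its own arrays and 23 without scan 2, and shares over all genes were not computed for these fits. In OR5119, 3 of the 40 were called, beside 1.9% of all genes, and all 3 are non-ATPase subunits of the regulatory particle. Psmd8, a lid subunit, measured 10.39, 10.32, 10.30 and 10.35 in vehicle animals and 10.55, 10.51, 11.10 and 11.80 in tolvaptan animals. The groups did not overlap, and tolvaptan animals 367 and 368 were highest. The difference was 0.68 ± 0.13 (SE, n = 4 against 4; limma adjusted p = 0.000114), a factor of 1.60. Without animal 368 it fell to 0.39 and lost the call (limma adjusted p = 0.162), and it kept the call when any other animal was left out. Animal 368 also had the lowest immunoproteasome mean of the strain, 6.37 against 7.67 to 9.14, and its correlation with its strain, 0.685, was the lowest of the arrays kept.

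Psmd13 in OR5119 measured 8.09, 7.68, 7.68 and 7.71 under vehicle and 8.27, 8.07, 8.84 and 8.20 under tolvaptan, overlapping at a single vehicle animal. Its difference was 0.59 ± 0.17 (limma adjusted p = 0.0359). Psmd2, a scaffold that receives ubiquitin-binding shuttles, measured 8.07, 8.95, 8.99 and 8.82 under vehicle and 9.48, 9.22, 9.43 and 9.20 under tolvaptan, without overlap. Its difference was 0.55 ± 0.16 (limma adjusted p = 0.0317). Psmd2 and Psmd13 each lost the call in 5 of the 8 fits that left out one animal, with adjusted p up to 0.231 and 0.339.

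The lowest vehicle animal for Psmd2 and the highest for Psmd13 were the same animal, 361, scanned apart in scan 6. Its constitutive mean was 8.95 and its relative log expression had an interquartile range of 0.586, the widest of the strain. Vehicle animal 364 was off its strain. With all arrays off their strain left out, Psmd8 and Psmd13 stood at 0.69 and 0.56, both called (2.07% of all genes), and Psmd2 at 0.56 (limma adjusted p = 0.0509).

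In AU8049, 2 of the 40 were called, beside 5.4% of all genes, a share near the background. Psmd8 measured 10.25, 10.24, 10.34 and 10.03 under vehicle and 11.18, 11.04, 10.30 and 10.06 under tolvaptan. Tolvaptan animals 345 and 346 were high, and the other two overlapped with vehicle. Its difference was 0.43 ± 0.12 (SE; limma adjusted p = 0.0181), and the call was lost without animal 344, 345 or 346, where it was 0.40, 0.26 and 0.31.

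Psme3ip1 in AU8049 measured 7.59, 7.85, 7.56 and 7.55 under vehicle and 5.64, 6.35, 7.54 and 7.33 under tolvaptan. The same animals, 345 and 346, were low, and all 4 tolvaptan animals lay below all vehicle animals. It fell by 0.93 ± 0.14 (SE; limma adjusted p = 4.57e-07), and without animal 345 the difference was -0.56 (limma adjusted p = 0.0535). Over all genes, leaving out animal 345 took the number called in AU8049 from 763 to 23, and leaving out 346 took it to 45.

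In AU8034, 1 of the 40 was called, Psmc3ip, beside 0.276% of all genes. It measured 6.27, 6.27, 3.48 and 3.86 under vehicle and 3.60, 3.34, 3.83 and 3.77 under tolvaptan. Both vehicle animals at 6.27 were arrays off their strain, and the difference of -1.34 ± 0.34 (SE; limma adjusted p = 0.0439) became 0.050 without them.

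Leaving out all arrays off their strain gave 7 calls, again a share near that of all gene and strain combinations, 0.319%. Psmd8 and Psme3ip1 kept theirs in AU8049 (7.31% of all genes), and 3 were new. Psma4 and Psmc2 rose in AU8033 by 0.96 and 0.60 (limma adjusted p = 0.0275 and 0.0282; 3.55% of all genes called), over the 2 vehicle and 3 tolvaptan animals kept. With all 8 animals their differences were 0.50 and 0.40 and were not called (limma adjusted p = 0.477 and 0.298). Psmb10 was lower in IL16750 by a difference of -1.23 (limma adjusted p = 0.0233; 0.276% of all genes called). In IL16750 the vehicle animals kept had Psmb10 values of 9.52 and 9.77, those left out 8.16 and 7.93, and the tolvaptan animals 8.42, 8.71, 8.22 and 8.38. With all arrays the Psmb10 difference there was -0.41.

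**Figure D2:**
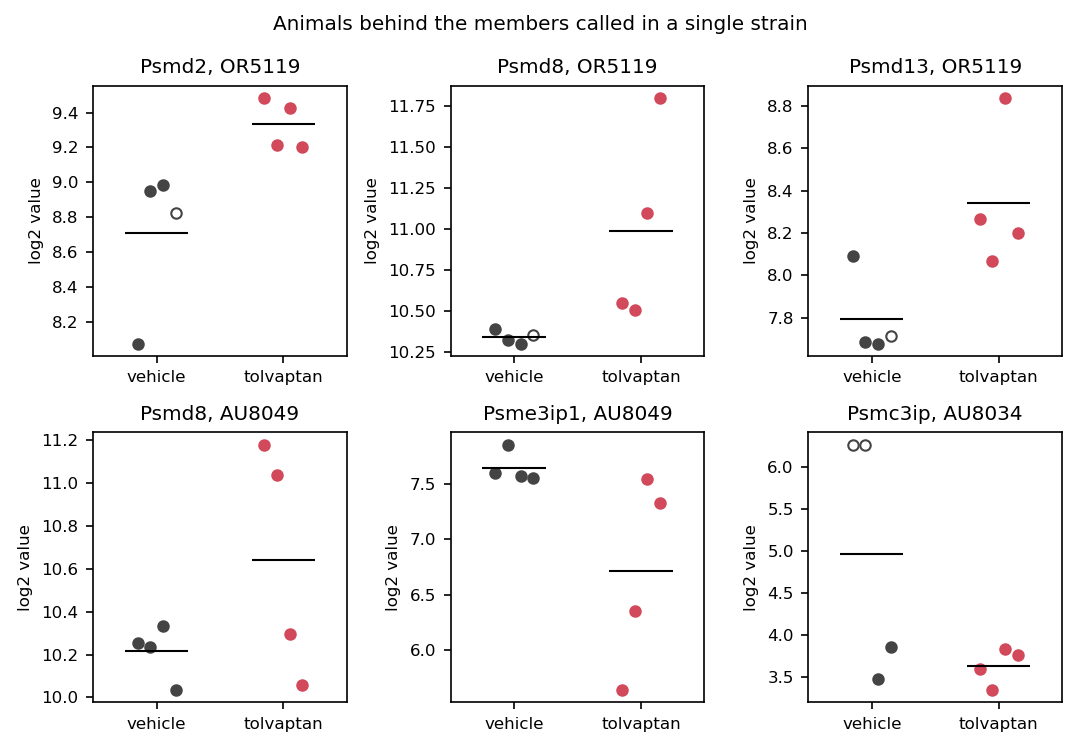
Log2 values of each animal for the 6 calls in single strains; grey points are vehicle, red points tolvaptan, open points arrays off their strain, and lines group means. In OR5119 the tolvaptan animals lie above vehicle for Psmd2 and Psmd8; in AU8049 a pair of tolvaptan animals stands apart; in AU8034 both vehicle points at 6.27 are open.

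The second question was how proteasome expression differed between strains without the drug. Values are probe-set signals, and whether sequence differences between founder genomes under the probes affect them was not tested. The vehicle means differed between strains for 34 of the 40 by the limma F test, beside 74.9% of all genes. All 5 ATPases, all 11 other subunits of the regulatory particle and all 6 of the beta ring were called, and 4 of 6 of the alpha ring. Not called were Psma2, Psma6, Psmb10 (limma adjusted p = 0.0529), Psme2, Psmb11 and Psme3ip1. Without the arrays off their strain 36 were called, beside 73.6% of all genes. Vehicle and tolvaptan strain means, which come from different animals, correlated at a median of 0.639 over the 40 genes, against 0.571 over all genes (45 strains).

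Strain means here are those of the fit, with scan removed, while animals are given as measured. Strain ranges were wide for Psmb8 and Psmb9 and narrower for the constitutive subunits. The range of vehicle strain means had a median of 0.88 over the 28 constitutive subunits and 1.06 over all genes. Averaged over all 28, strains ran from 9.11 to 9.48, a span of 0.364. Averaged over the 3 immunoproteasome subunits, they ran from 6.96 in AU8036 to 8.73 in OR5035, a span of 1.77. These spans are not on one scale, since averaging a larger number of less correlated genes narrows a span. Vehicle strain means correlated at a mean of 0.185 among the 28 and 0.478 among the 3. By single gene, ranges reached 1.85 among the 28 and ran from 0.96 to 2.55 among the 3.

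Psmb9 ran from 6.10 in AU8036 to 8.66 in OR5035, a factor of 5.86 (limma F test, adjusted p = 2.5e-10). The 4 vehicle animals of AU8036 measured 6.08, 6.56, 6.15 and 5.22, and those of OR5035 measured 8.48, 8.08, 9.11 and 8.56. Psmb8 had the same strains at both ends, at 6.55 and 8.88, a factor of 5.03 (limma F test, adjusted p = 2.22e-11). Its animals measured 6.33, 7.15, 6.12 and 6.24 in AU8036 and 8.76, 8.42, 9.24 and 8.72 in OR5035. Neither gene had any overlap between these strains, and neither strain held an array off its strain. Without the arrays off their strain OR13067 was highest for Psmb8, at 9.13, and OR5035 stayed highest for Psmb9.

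After AU8036, the lowest strains for Psmb8 were AU8043 at 7.10 and IL16012 at 7.23. For Psmb9 they were OR3393 at 6.32 and OR13067 at 6.54, the latter 7.42 without 2 arrays off its strain. OR15156 was second highest for both, at 8.78 and 8.49. Psmb10 spanned less, from 7.96 in OR3609 to 8.92 in IL16750, or 9.72 without the arrays off their strain. The IL16750 value rested on arrays that disagreed, as above, and OR3609 animals measured 8.45, 8.05, 8.44 and 7.31.

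**Figure D3:**
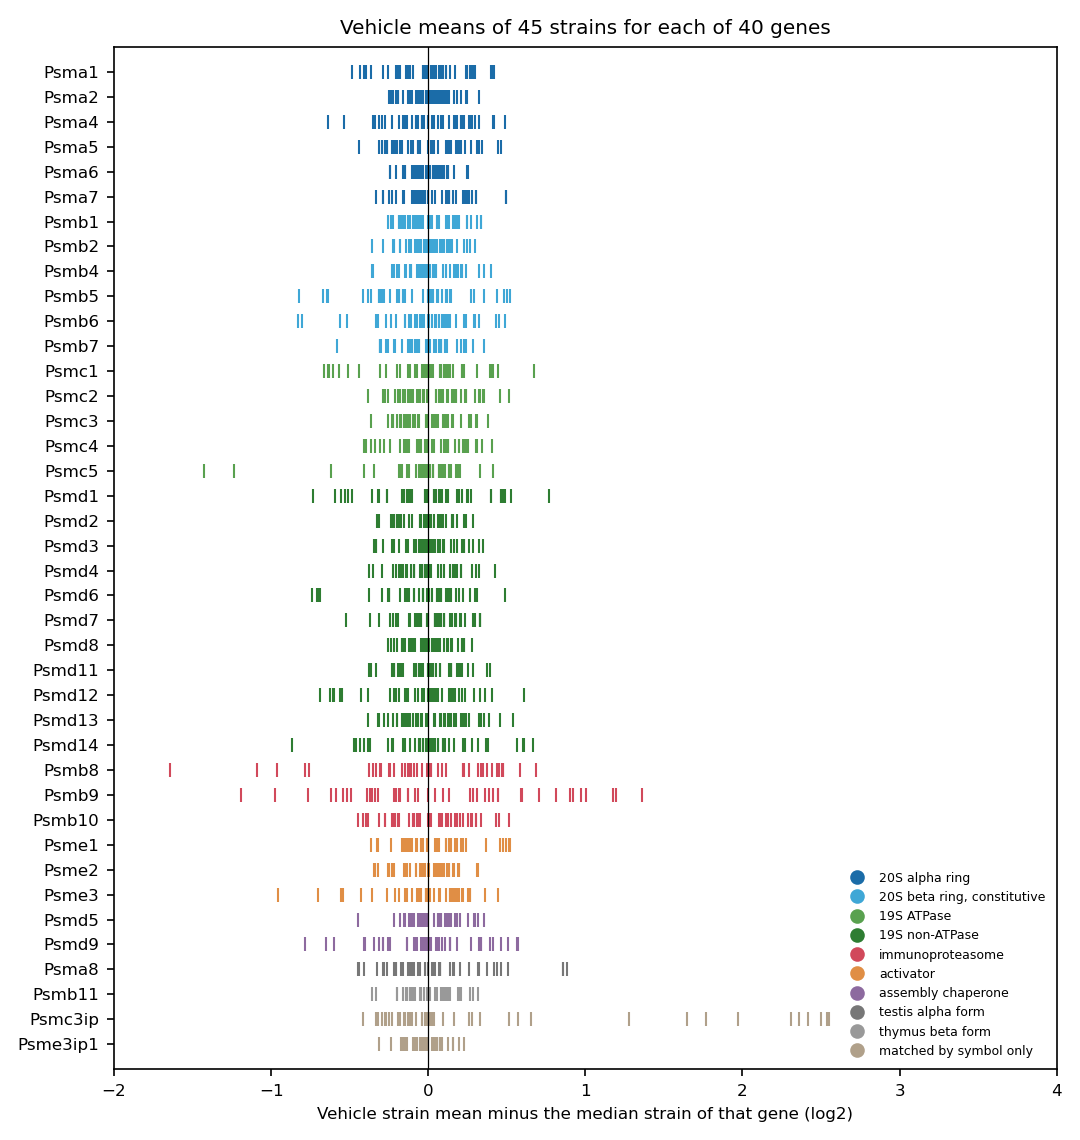
Vehicle mean of each of the 45 strains (1 tick per strain) relative to the median strain of that gene (log2), for the 40 genes coloured by role. Psmb8, Psmb9 and Psmc3ip spread most widely, Psmc5 has a pair of strains far to the left, and most constitutive subunits stay within a span of 0.50 to 1.53.

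Among constitutive subunits the widest range belonged to Psmc5, an ATPase, and came from 2 strains. AU8052 had 7.76 and OR3415 7.96, while the next strain, OR5391, had 8.58 and the highest, OR3609, 9.61 (limma F test, adjusted p = 7.11e-36). The AU8052 animals measured 7.35, 7.52 and 8.12, and the OR3609 animals 9.29, 9.74, 9.70 and 9.43, without overlap. Vehicle and tolvaptan strain means of Psmc5 correlated at 0.946 over 45 strains.

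Psmd14, the subunit that cuts ubiquitin chains off the substrate, ran from 7.61 in OR13067 to 9.14 in AU8049. Psmd1, the other large scaffold, ran from 7.96 in IL16188 to 9.45 in OR3393. One IL16188 animal lay at 6.93 and the other 3 between 8.22 and 8.48. Psme3 ran from 5.70 in OR5391 to 7.10 in AU8048, with animals from 5.55 to 6.07 in the first and from 7.02 to 7.36 in the second. Without the arrays off their strain AU8033 was lowest for Psmd1, at 7.48, and highest for Psme3, at 7.31. Psmd9 ran from 7.80 in AU8016 to 9.15 in OR15156, with animals from 7.50 to 8.34 and from 9.03 to 9.45. Without the arrays off their strain the lowest Psmd9 strain was AU18042 at 7.73.

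The catalytic subunits also differed between strains. Psmb5 ran from 6.69 in OR773 to 8.03 in AU8033, and 8.61 in AU8024 was highest without the arrays off their strain. The OR773 animals measured from 5.13 to 7.58 with an SD of 1.06, the widest of the groups shown for the catalytic subunits. Psmb6 ran from 9.72 in AU8052 to 11.04 in IL16188, with animals from 9.61 to 9.93 and from 10.76 to 11.27, and IL16750 was highest at 11.19 without the arrays off their strain. Psmb7 ran from 7.36 in IL16750 to 8.29 in AU8002, and the lowest was IL16557 at 7.62 without the arrays off their strain.

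Psme1 was highest in OR13421 at 10.36, with animals from 10.16 to 10.63, and lowest in AU8024 at 9.47, with animals from 9.13 to 9.77 (limma F test, adjusted p = 3.34e-12). Without the arrays off their strain OR13067 was highest, at 10.66. Psme2 had a range of 0.67 and was not called. Psmc3ip had the widest range of the 40, from 3.31 in AU8036 to 6.27 in AU8049, and the widest step in its order, 0.627, left 35 strains below and 10 above. Its animals measured from 3.12 to 3.48 in AU8036 and from 6.11 to 6.39 in AU8049, IL16211 was highest at 6.30 without the arrays off their strain, and its vehicle and tolvaptan strain means correlated at 0.943.

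At its low end, the strain order of some regulatory-particle subunits held strains with neighbouring animal numbers. For Psmc1 the 7 lowest strains, from IL16750 at 8.83 to IL16188 at 9.06, were those with animal numbers 101 to 168. For Psmd14 the lowest 6 strains, and for Psmd6 the lowest 4, were among these 7. All of the 7 but OR13140 hold arrays off their strain, which these strain means include. The order without them is not given here. Mean array 75th percentiles of these 7 strains ran from 4.98 to 5.18 against 5.11 to 5.27 in the other strains. Their spread of relative log expression ran from 0.383 to 0.505 against 0.343 to 0.435. Their 7 vehicle animals of scan 1, scanned with all strains, were between rank 2 and rank 16 of 45 for Psmc1. With the array 75th percentile as a covariate, a step added after seeing the data, 36 of the 40 were called for vehicle strain differences. The share over all genes was not computed. That F test asks for any difference among strains, so it cannot show whether the order by animal number holds. The part of array quality in this order was not tested.

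Psmb8 and Psmb9 lie next to each other in the class II region of the major histocompatibility complex, in the order Psmb9, Tap1, Psmb8, Tap2 in the RefSeq gene table. Their vehicle strain means correlated at 0.772 over 45 strains, and at 0.788 without the arrays off their strain. Psmb8 correlated with Psmb10, which lies elsewhere, at 0.424, and Psmb9 with Psmb10 at 0.239. With their constitutive counterparts the values were 0.069 for Psmb8 and Psmb5, 0.123 for Psmb9 and Psmb6, and -0.417 for Psmb10 and Psmb7. These correlations are descriptions, and the strain means share arrays, scans and normalization.

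**Figure D4:**
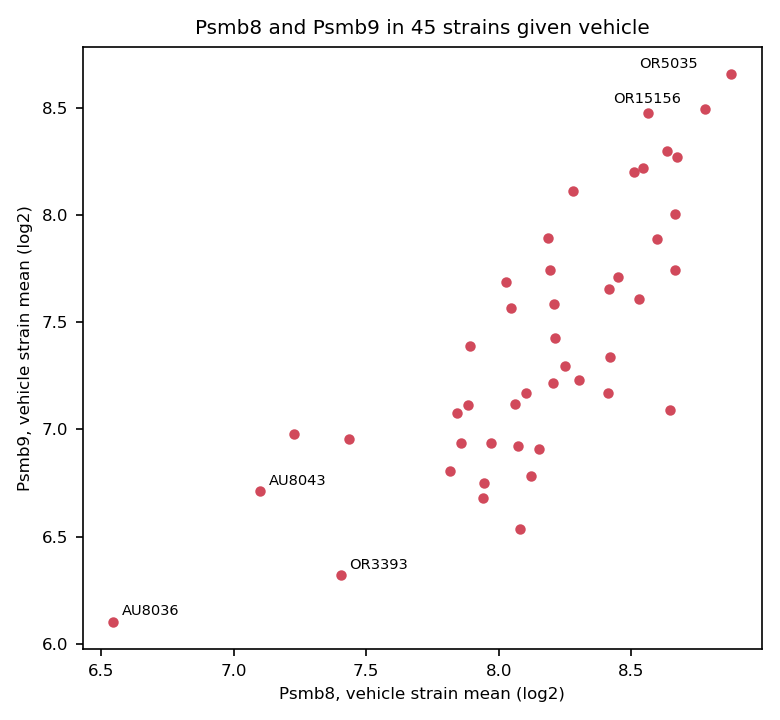
Vehicle strain means (log2) of Psmb8 and Psmb9, 1 point for each of 45 strains, with 5 strains named. The points run from AU8036 at 6.55 and 6.10 to OR5035 at 8.88 and 8.66, with a correlation of 0.772.

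Promoter sequence is shown for the neighbours Psmb8 and Psmb9, since their strain means moved together, and for Psmb5, the subunit that Psmb8 replaces. Each is the 250 bases before the annotated start in RefSeq, build GRCm38.p6, in the direction of the gene, at chr17:34197945-34198194 (plus strand), chr17:34187331-34187580 (minus strand) and chr14:54617996-54618245 (minus strand). Capitals mark matches to the searched motifs: a gamma-activated site in Psmb8, a CCAAT box on the opposite strand in Psmb9 and an antioxidant response element core in Psmb5.
Psmb8: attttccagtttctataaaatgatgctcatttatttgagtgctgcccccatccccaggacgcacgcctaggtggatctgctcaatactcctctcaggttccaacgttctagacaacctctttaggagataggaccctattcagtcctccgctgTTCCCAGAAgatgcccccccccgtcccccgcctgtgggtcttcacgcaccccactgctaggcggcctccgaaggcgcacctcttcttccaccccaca
Psmb9: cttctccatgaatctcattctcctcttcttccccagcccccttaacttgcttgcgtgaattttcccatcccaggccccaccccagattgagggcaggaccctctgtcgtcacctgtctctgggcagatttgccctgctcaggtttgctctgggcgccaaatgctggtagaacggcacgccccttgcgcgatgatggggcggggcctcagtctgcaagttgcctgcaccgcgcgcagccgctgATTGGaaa
Psmb5: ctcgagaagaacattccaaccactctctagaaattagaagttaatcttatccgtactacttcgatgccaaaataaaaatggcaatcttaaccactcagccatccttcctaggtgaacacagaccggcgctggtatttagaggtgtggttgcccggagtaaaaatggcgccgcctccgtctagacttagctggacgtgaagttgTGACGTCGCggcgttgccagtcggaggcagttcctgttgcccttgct

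Windows of 250 bases before to 50 after the start were found for 33 of the 40 genes and were searched on both strands. Promoters on chr18 were left out, both for the 40 genes and for the background. The gamma-activated site TTCNNNGAA was in 2 of the 33, Psmb8 and Psmd2, beside 8.3% of 32851 promoters. The interferon-stimulated response element, through which interferon factors act, was in 3 of the 33, Psme1, Psmd4 and Psmd9, beside 3.44%. The antioxidant response element core TGACNNNGC was in 4, Psmb5, Psmb6, Psmd9 and Psmd12, beside 12.4%. CCAAT was in 13, beside 37.4%. The 33 are counted by gene, with a match in any window of that gene, and the background by single window. The shares are therefore not on one scale, since some of the 33 have several windows. The Psmb9 window shares 275 of its 300 bases with that of Tap1, which runs the other way. A match here is a string of letters and not a measured binding site.

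The genes whose vehicle strain means were most like those of Psmb8 were Psmb9 (r = 0.77), the interferon-induced Ifi35 (0.67), Slc12a8 (0.65), Kat14 (0.58) and Lgals3bp (0.58). Those of Psmb9 were Psmb8, Ap5b1 (0.63), Msrb2 (0.59), Krba1 (0.58) and 2310011J03Rik (0.58). Psmb10 was closest to Vamp5 (0.67), Rras (0.65), Copz1 (0.65), Ndufs8 (0.65) and Kif22 (0.64). Psme1 was closest to Fkbp8 (0.69), Tspan4 (0.68), Eng (0.67), Cdk10 (0.64) and Apeh (0.64). The mean of the constitutive subunits was closest to Srxn1 (0.64), Txnl1 (0.63), a thioredoxin-like protein bound to the regulatory particle, Ahsa1 (0.62), Imp3 (0.62) and the shuttle Ubqln2 (0.61). These are the highest of 14125 genes over 45 strains and are given as a description. The lists changed without the arrays off their strain. For Psmb9 the values of Ap5b1, Krba1 and 2310011J03Rik were then 0.42, 0.46 and 0.48, and of its 5 genes only Psmb8 was still among the closest 5. The same held for Ndufs8 beside Psmb10 and for Srxn1 beside the constitutive mean. For Psmb8, Kat14 and Lgals3bp had 0.45 and 0.46 and left the closest 5, and for Psme1, Cdk10 and Apeh left them.

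Between animals of the same strain and treatment, the immunoproteasome subunits and the Psme1 and Psme2 cap formed a block of their own. With strain, treatment and scan removed, Psmb8, Psmb9 and Psmb10 correlated at 0.652 to 0.732 over 354 arrays, and with Psme1 and Psme2 at a mean of 0.586. The mean over all pairs of genes was 0.017. The 354 arrays include the 34 off their strain, so differences between strains can remain in these values. The correlations between animals were not computed without those arrays. The 28 constitutive subunits correlated among themselves at a mean of 0.265, and with the immunoproteasome subunits at a mean of -0.165. Psme3 correlated below 0 with all 5.

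The constitutive subunits were themselves divided. Psmd1, Psmd6, Psmd12 and Psmd14, of the scaffold and lid, correlated at a mean of 0.781, the closest pair being Psmd1 and Psmd14. Psmc4, Psmd3, Psmd4 and Psmd13 correlated at a mean of 0.616, with Psmc4 and Psmd3 at 0.795. Between both sets of 4, chosen after seeing the correlations, the mean was -0.047. Against the immunoproteasome subunits the first set had a mean of -0.422. In the alpha ring the closest pair was Psma2 and Psma6.

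The first set, like some alpha-ring subunits, also followed the arrays. Psmd1, Psmd6, Psmd12 and Psmd14 correlated with the array 75th percentile at 0.53, 0.53, 0.57 and 0.47, at or near the 95th percentile of all genes, 0.49. Psma6, Psma1 and Psma2 of the alpha ring had 0.51, 0.49 and 0.43. The second set lay between -0.055 and 0.15, and the immunoproteasome subunits between -0.19 and -0.058. With the 75th percentile and the spread of relative log expression removed as well, the mean within the first set was 0.699, within the immunoproteasome 0.687, and between immunoproteasome and constitutive subunits -0.145.

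**Figure D5:**
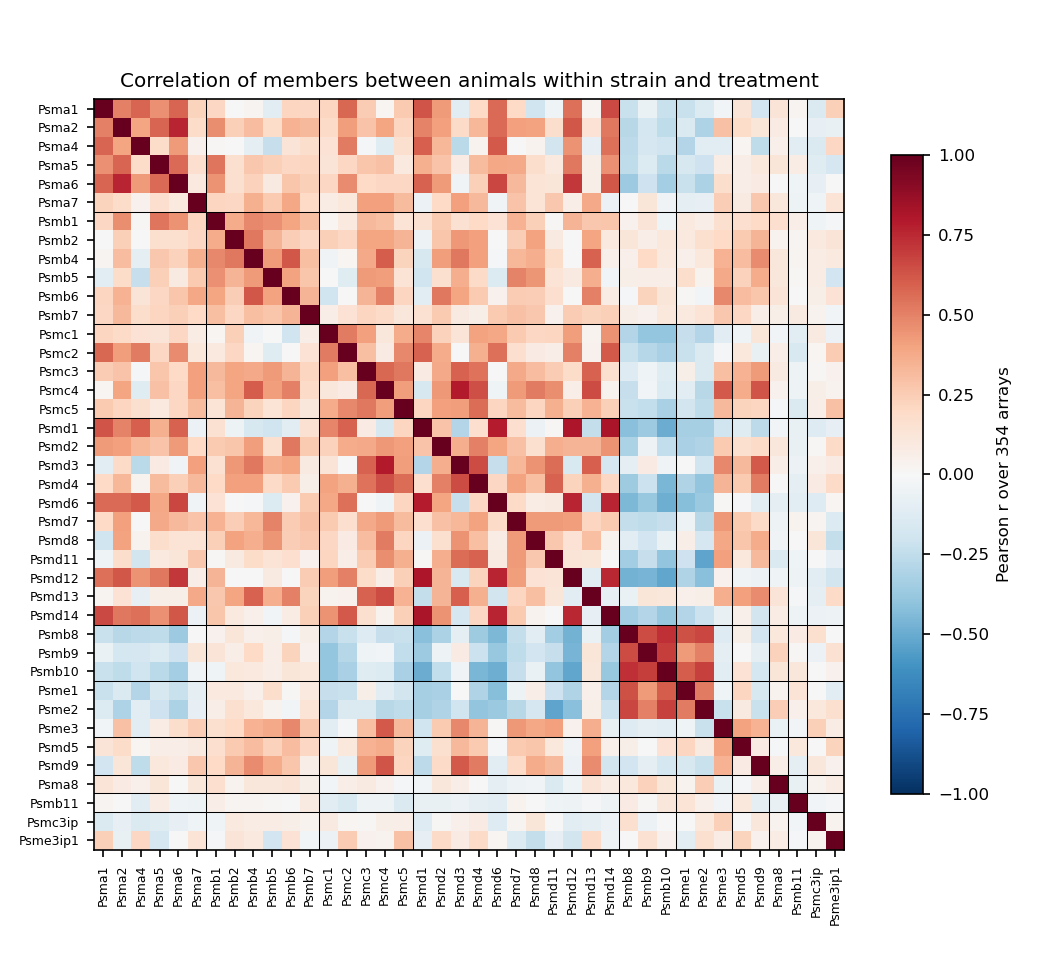
Pearson correlation of the 40 genes over 354 arrays after removing labelled strain, treatment and scan, ordered by role with lines between roles. Red is positive and blue negative, and the 34 arrays off their strain are included. Psmb8, Psmb9, Psmb10, Psme1 and Psme2 form a red block, pale to blue against most constitutive subunits, with a mean of -0.165 between immunoproteasome and constitutive subunits.

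For some genes a second probe set could be compared. The second Psmb9 probe set, with a strain range of 1.89 beside 2.55, correlated at 0.86 with the one used over vehicle strain means, and its averaged difference was 0.016 beside 0.064. Second probe sets correlated at 0.80 for Psmd4, 0.73 for Psma7, 0.56 for Psmc4, 0.45 for Psmd6 and 0.36 for Psme3. Of the 2 others for Psmd9, 1 correlated at 0.09 and 1 at 0.70, so that its strain order depends on the probe set.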

How the data were processed

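Per the submitters' processing notes, the authors made the deposited log2 expression values with RMA in the Affymetrix Expression Console from one-colour HT_MG-430 PM arrays; versions and the genome build are not given in the sources used here. Precision is limited by how many arrays there are, since arrays carry no depth. Of several single-symbol probe sets for a gene the brightest was used, if above the array median in at least 4 arrays. A single model for all 14125 genes, fitted in limma 3.58.1 (R 4.3.3), gave each strain and treatment group its own mean and included the scan (6 levels). Contrasts were the tolvaptan minus vehicle difference averaged over strains and in each strain, an F test of equal differences, and an F test of equal vehicle means, two-sided with Benjamini-Hochberg adjustment over all genes at 0.05. The residual spread was shared over groups.

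Given in full were called genes, the 3 largest averaged rises and falls, the 8 widest vehicle strain ranges, the immunoproteasome genes, their cap and counterparts, and calls in single strains by a fold of at least 1.5; for related lists, called genes or those of lowest p. The other single-strain values, OR477, AU8010, the other named averaged differences and strains, and the sets of correlated subunits were chosen after their values were seen. The genes and lists (assembly, regulators, ubiquitin, endoplasmic reticulum, antigen processing, interferon, class II and cell types) were chosen with earlier results of these data known. Alternatives covered the scan term, array weights, probe sets, scaling, filters, arrays off their strain, and single replicates and scans. The dose label has no unit and was not used. Psma3, Psmb3, Psmc6, Psmd10 and Psme4 were not analysed here. Steps were tested on simulated data.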

Additional observations from a re-analysis of the deposited data

Results flagged for a closer look

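In groups of 4 animals, the highest or lowest animal stood apart from the others by Dixon's 95% limit in 5 of 85 groups for the constitutive mean, 2 of 85 for the immunoproteasome mean and 5 of 45 groups of genes shown by animal; chance flags about 1 in 20 groups. For the constitutive mean, AU8010 vehicle animal 373 lay at 8.544 against 9.427 to 9.466, AU8018 vehicle animal 211 at 9.307 against 9.095 to 9.11, AU8052 tolvaptan animal 355 at 8.944 against 9.05 to 9.067, OR5612 tolvaptan animal 277 at 9.472 against 9.196 to 9.239, and OR867 tolvaptan animal 16 at 9.634 against 9.338 to 9.35.

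For the immunoproteasome mean, IL16750 tolvaptan animal 127 lay at 7.764 against 7.898 to 7.91, and OR5612 vehicle animal 273 at 8.19 against 7.541 to 7.611. For single genes, Psmc3ip in AU8049 vehicle animal 344 was 6.105 against 6.369 to 6.388, Psmd1 in IL16188 vehicle animal 143 was 6.929 against 8.223 to 8.475, and Psme2 in OR13421 vehicle animal 112, an array off its strain, was 9.601 against 9.292 to 9.313. Psme3ip1 in AU8049 vehicle animal 342 was 7.848 against 7.554 to 7.595, and Psmd13 in OR5119 vehicle animal 361 was 8.092 against 7.677 to 7.713.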

How the results depend on the processing

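Of 23 alternatives for the averaged effect, 21 kept the count of called genes at 0. It was 2 with array weights (Psma8 and Psme2), where 434 of all 14125 genes were called. Without single replicates it was 0 to 1, the 1 being Psme2 without replicate 3, where 81 of all 14125 genes were called. The number of the 40 above 0 ran from 20 in scan 5 alone to 35 without replicate 1. The interaction called 1 gene without scan 2 (Psmd13), 12 with array weights and 0 to 1 without single replicates. Vehicle strain calls ran from 31 to 40 over 16 alternatives. Calls in single strains, 6 in all, were 2 in strains with no array off its strain, 23 without scan 2, 13 with array weights, 0 with each strain fitted on its own arrays, and 1 to 8 without single replicates. Shares over all genes were not computed for these interaction, vehicle strain and single-strain counts. The causes were not tested. The averaged difference changed sign for Psmb9 at -0.0017 with the median over probe sets, Psmb5 at -0.011 without the arrays off their strain and from -0.015 to 0.018 without single replicates, and Psmd2 at -0.0032 without scan 2. In scan 1 alone Psmc1 was -0.045, Psmb5 -0.013, Psme3 0.0096 and Psmc3ip 0.057. In scan 2 alone Psmb10 was -0.043, Psmb7 -0.042, Psme2 -0.024, Psmb5 -0.077, Psmb6 -0.058, Psmb9 -0.053 and Psme3ip1 0.034. In scan 3 alone Psma8 was -0.025, Psmd12 -0.031 and Psmb9 -0.0011. In scan 5 alone Psmc2 was -0.089, Psmd2 -0.018, Psmb5 -0.050, Psmb6 -0.22 and Psmb9 -0.091. No paired analysis was possible because the labels give no replicate numbers shared between groups. The covariate for the array 75th percentile and the fits without single animals were chosen after seeing the data.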
